A study of Mus musculus with 20 samples.

Results

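The IL-7 receptor and its JAK-STAT5 pathway were followed through 10 genes, chosen by their mouse symbols among the 25869 genes of the expression table. They were the receptor chains Il7r and Il2rg, the kinases Jak1 and Jak3, the transcription factors Stat5a, Stat5b and Stat6, and the target genes Socs2, Cish and Pim1, and all 10 were found. Their levels were measured by RNA-seq in 20 libraries, as CPM, that is, reads per 1000000 reads counted on genes.

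The 6 lymphoma lines arose in B cells with an Eµ-Myc transgene and 1 copy of the dCas9a-SAM knock-in (KI/+). A guide RNA, sgBcl-2, recruits the activating dCas9 to Bcl-2 in them. Each line was grown in FMA medium from 1 recipient mouse that had been reconstituted with transduced foetal liver cells. Lines 14_179_IgMp, 15_180_IgMp, 16_202_IgMp and 17_213_IgMp, named as in their titles, were IgM-positive, and lines 18_214_IgMn and 19_216_IgMn were IgM-negative. The 2 primary tumours, libraries 20 and 21, were IgM-positive lymphomas of the mice that gave lines 14_179_IgMp and 15_180_IgMp, and carried the same alleles and guide. The 2 preB-ALL libraries, P190CreERLSLErg and P190RagCreErg, were preB leukaemia cells of genotype BCR-ABL1 (p190T/+), grown in IMDM with FBS and IL7. Their titles differ, and the labels do not settle whether the 2 libraries share all alleles. The baseline was 10 libraries of mouse embryonic fibroblasts (MEFs): 2 WT, 2 dCas9-SAM without a guide, 2 with a non-targeting guide (sgNT) and 4 with sgBcl-2, from embryos at E14. Going by the numbers in the titles, the 8 dCas9-SAM libraries came from 2 MEF lines and the WT libraries from 2 others, so the 10 libraries stand for 4 lines and are not independent. The labels mark no treatment and give no age for the mice of the tumours.

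IL-7 is a cytokine made by stromal cells, and early B cells depend on it for survival and growth. It binds the IL-7 receptor α chain, encoded by Il7r, together with the common γ chain, encoded by Il2rg. The α chain carries JAK1 and the γ chain carries JAK3, and these kinases phosphorylate STAT5A and STAT5B, which enter the nucleus and switch on genes such as Cish, Socs2 and Pim1. CIS and SOCS2, the products of Cish and Socs2, dampen cytokine signalling, and PIM1 is a kinase that favours survival. BCR-ABL1 is a tyrosine kinase known to activate STAT5 without a cytokine. STAT6 acts mainly below the IL-4 receptor. RNA levels, and not phosphorylation, were measured here.

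STAT5 dimers bind the letters TTCNNNGAA, which read the same on both strands. This motif was sought in windows from 250 bases before to 50 bases after a transcript start of each gene (RefSeq, GRCm38.p6), of which 9 of the 10 genes had at least 1, Socs2 being the exception. Some genes have several starts, and the motif was found in 2 of the 12 member windows, those of Cish and Il7r. In Cish the first match began at that start, which is also the first base of the gene (chr9:107296654-107296683, plus strand) and the second 11 bases further on. In Il7r the single match began 142 bases before the transcript start of the window (position -142) and 77 bases before the outermost start of the gene (position -77, chr15:9529999-9530028, minus strand). These stretches of 30 bases are shown because theirs are the member windows that hold the motif. Capitals mark the motif, and both are written 5′ to 3′ on the strand of the gene:
Cish: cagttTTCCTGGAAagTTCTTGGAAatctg
Il7r: gttcaggagcTTCAGGGAAtaccaagatgc
Of all 32851 windows of this length, 8.3% held the motif. A match of these letters is a description of the window and not a measured binding site.

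Depth lay between 12474885 and 26678417 reads on genes, with both preB-ALL libraries at the low end. Their RNA was also extracted with another RNA kit, they came from another flow cell and they had 0 reads on mitochondrial genes. They were grown with IL7, the ligand of this pathway, whereas the lines were grown in FMA medium. Tumour type, BCR-ABL1, IL7 in the medium and batch therefore cannot be told apart in any comparison with them. Bcl2, the target of the guide, stood at 99.4 to 165 CPM in the lines, 235 to 244 CPM in the tumours and 20.8 to 22.0 CPM in preB-ALL. Within the MEFs it was 46.8 to 71.8 CPM with sgBcl-2 and 11.2 to 17.9 CPM without it. Of 10 B lineage markers, the summed level was 1271 to 2649 CPM in the lines, 5489 to 5755 CPM in the tumours, 6564 to 10992 CPM in preB-ALL and at most 25.4 CPM in MEFs. The 12 fibroblast markers summed to 2448 to 5796 CPM in preB-ALL, against 5.72 to 88.2 CPM in the lines, 26.5 to 221 CPM in the tumours and 8400 to 25261 CPM in MEFs. In preB-ALL, Dcn was listed at 0 in both libraries and Lum at 0 in P190RagCreErg. Library WT MEF 2 stood apart from the other MEFs. Its 6 myeloid markers summed to 221 CPM, against 8.47 to 14.1 CPM in the other 9, with Lyz2 at 104, Csf1r at 24.4 and Adgre1 at 17.4 CPM. Its fibroblast markers summed to 8400 CPM, against 17733 CPM or more in the other 9, and its T cell markers to 7.90 CPM, against at most 0.869 CPM.

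**Figure D1:**
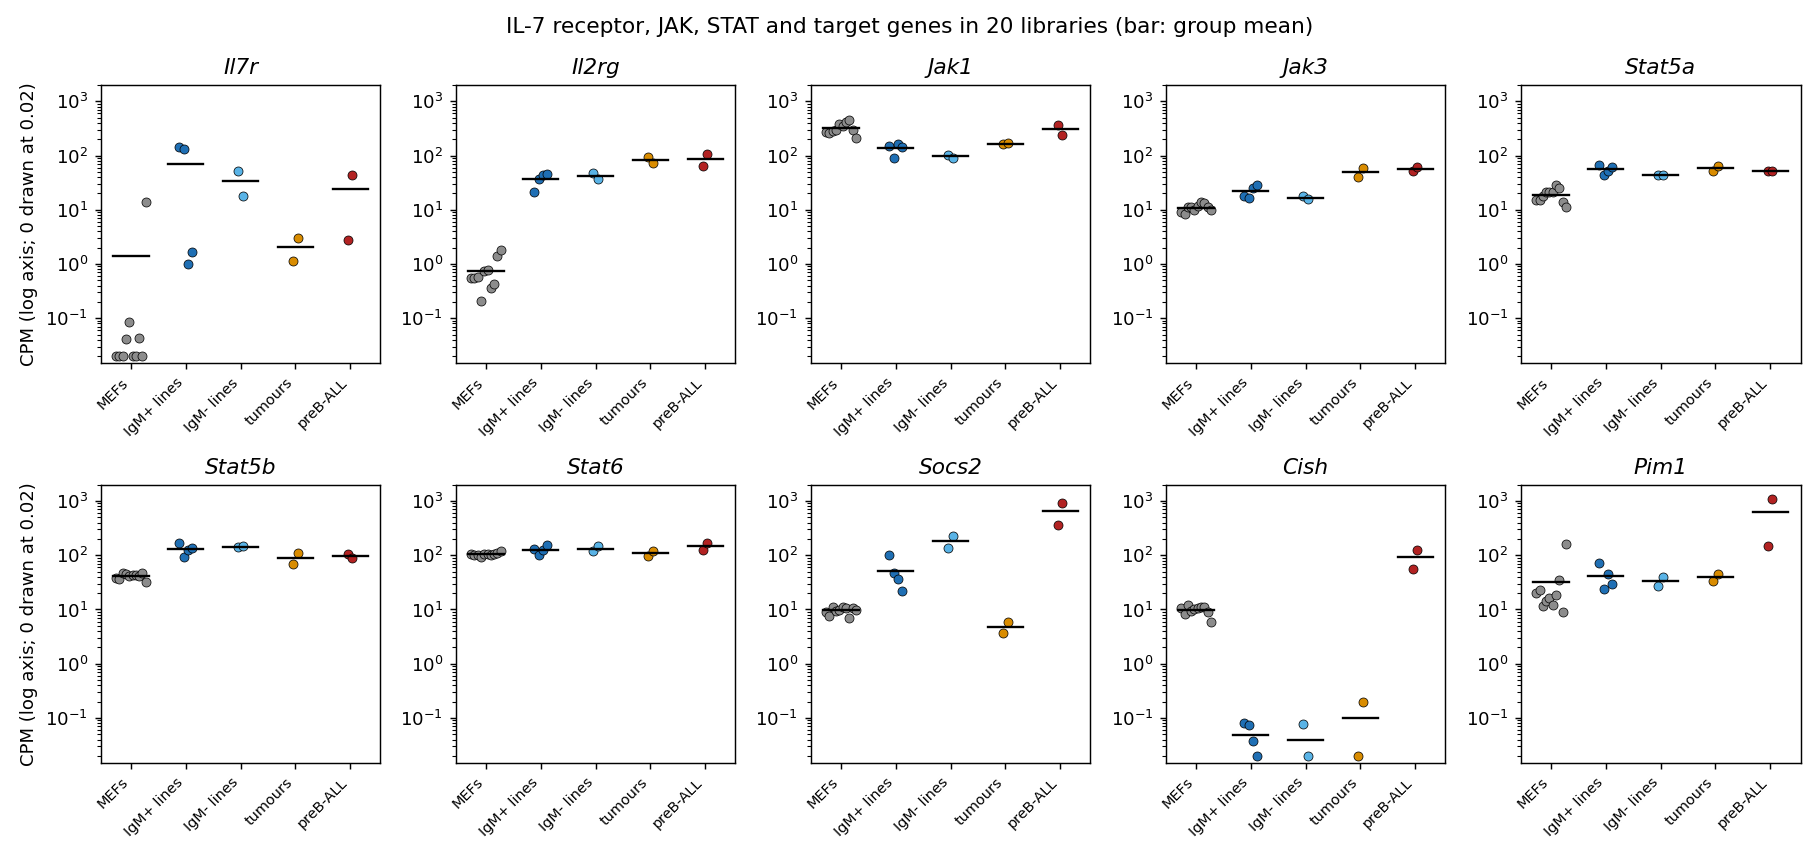
CPM of the 10 genes in all 20 libraries on a log axis, 1 point per library and a bar at each group mean, with a value of 0 drawn at 0.02. Il7r spreads from 0.986 to 142 CPM among the 6 lymphoma lines, whereas Cish stays below 0.1 CPM in all of them and reaches 54.9 and 127 CPM in preB-ALL.

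Il7r was the most variable of these genes among the lymphoma lines. It had 142 CPM in line 14_179_IgMp, 132 CPM in 15_180_IgMp, 0.986 CPM in 16_202_IgMp, 1.69 CPM in 17_213_IgMp, 50.8 CPM in 18_214_IgMn and 17.8 CPM in 19_216_IgMn. The IgM-positive lines thus held both the highest and the lowest levels, and the IgM-negative lines lay between them. The primary tumours had 1.14 CPM (library 20) and 2.99 CPM (library 21). In preB-ALL, P190CreERLSLErg had 2.74 CPM and P190RagCreErg 44.6 CPM, and this pair lay within the range of the lines. From high to low, the order was 14_179_IgMp, 15_180_IgMp, 18_214_IgMn, P190RagCreErg, 19_216_IgMn, tumour 21, P190CreERLSLErg, 17_213_IgMp, tumour 20 and 16_202_IgMp. Each is a single library, so neighbours in this order cannot be set apart. In 9 of 10 MEF libraries Il7r had 0 to 2 reads, while WT MEF 2, the library with the high myeloid markers, had 359 reads (13.6 CPM). The highest line exceeded the lowest 144-fold for Il7r, against 10.6-fold for Socs2, 2.95-fold for Pim1, 2.20-fold for Il2rg and 1.52 to 1.83-fold for Jak1, Jak3, Stat5a, Stat5b and Stat6. In bulk RNA, fewer cells that express a gene and less RNA per cell cannot be told apart.

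Il2rg was present in every B-lineage library. It had 21.7, 37.0, 43.4 and 45.2 CPM in the IgM-positive lines 14_179_IgMp, 15_180_IgMp, 16_202_IgMp and 17_213_IgMp, and 47.6 and 37.5 CPM in the IgM-negative lines 18_214_IgMn and 19_216_IgMn. The tumours had 93.0 and 71.3 CPM and preB-ALL 63.5 and 106 CPM, so that all 6 lines lay below both tumours and both preB-ALL libraries. MEFs had 0.207 to 1.82 CPM.

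Of the kinases, Jak1, which most cell types express, had 150, 91.4, 161 and 141 CPM in the IgM-positive lines, 103 and 91.3 CPM in the IgM-negative lines, 163 and 169 CPM in the tumours, and 372 and 238 CPM in preB-ALL. MEFs had 207 to 460 CPM, which spans the preB-ALL values. Jak3, whose expression is typical of blood cells, had 18.1, 16.4, 25.5 and 28.6 CPM in the IgM-positive lines, 17.9 and 15.6 CPM in the IgM-negative lines, 39.7 and 59.3 CPM in the tumours, and 52.3 and 60.8 CPM in preB-ALL. The lines were below every tumour and preB-ALL library and above every MEF (8.21 to 14.0 CPM). Per kilobase of exon, mean Jak1 levels exceeded mean Jak3 levels 4.47-fold in the lines, 2.48-fold in the tumours, 4.0-fold in preB-ALL and 21.7-fold in MEFs.

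The STAT genes were present in all libraries. Stat5a had 67.8, 43.4, 51.1 and 62.5 CPM in the IgM-positive lines, 43.0 and 44.4 CPM in the IgM-negative lines, 51.8 and 64.9 CPM in the tumours, and 51.0 and 50.8 CPM in preB-ALL. Stat5b had 166, 90.9, 122 and 136 CPM in the IgM-positive lines, 141 and 146 CPM in the IgM-negative lines, 70.2 and 108 CPM in the tumours, and 104 and 90.5 CPM in preB-ALL. Line 15_180_IgMp lay between the preB-ALL libraries, and the other 5 lines lay above them. Both genes were lower in all MEFs, at 11.4 to 28.4 CPM for Stat5a and 32.6 to 47.6 CPM for Stat5b. They lie head to head on chromosome 11 with 346 bases between them (chr11:100780731-100859004 for Stat5b and chr11:100859351-100885169 for Stat5a, GRCm38.p6). Their sequences are close copies, so the split of reads between them is uncertain. Per kilobase of exon, Stat5b exceeded Stat5a 3.31-fold in the lines, 1.97-fold in the tumours, 2.46-fold in preB-ALL and 2.81-fold in MEFs. Stat6 had 102 to 154 CPM in the lines with a median of 127 CPM, 98.7 and 122 CPM in the tumours, 125 and 167 CPM in preB-ALL and 92.9 to 119 CPM in MEFs. The lines overlapped with both other B-lineage groups. Both tumours lay below both preB-ALL libraries in unscaled CPM. Scaling factors for library composition (TMM) were 1.23 and 1.32 in preB-ALL and 1.09 and 1.04 in the tumours, so scaling can change this order.

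Of the target genes, Cish was almost absent from the lymphoma libraries. It had 2, 2, 1 and 0 reads in the IgM-positive lines 14_179_IgMp, 15_180_IgMp, 16_202_IgMp and 17_213_IgMp, 2 and 0 reads in the IgM-negative lines 18_214_IgMn and 19_216_IgMn, and 0 and 4 reads in tumours 20 and 21. P190CreERLSLErg had 822 reads (54.9 CPM) and P190RagCreErg 1590 reads (127 CPM). MEFs had 5.78 to 12.2 CPM, so that Cish was lower in every lymphoma library than in any fibroblast library. Both preB-ALL libraries were above every MEF. Pooled over the 6 lines, 7 of 146596936 reads fell on Cish, which is 0.0477 CPM with an exact 95% Poisson interval from 0.0192 to 0.0984 CPM. The pooled preB-ALL level of 87.9 CPM was 1841-fold higher (exact 95% interval from 892 to 4583-fold, covering counting error only), and the pooled MEF level of 9.81 CPM was 205-fold higher (interval from 99.5 to 511-fold).

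Socs2 had 101, 46.3, 36.8 and 21.6 CPM in the IgM-positive lines 14_179_IgMp, 15_180_IgMp, 16_202_IgMp and 17_213_IgMp, and 137 and 228 CPM in the IgM-negative lines 18_214_IgMn and 19_216_IgMn. The tumours had 3.64 and 5.78 CPM, below all lines and all MEFs (6.90 to 11.3 CPM). With 360 and 936 CPM, both preB-ALL libraries were above all other libraries. Pim1 had 70.9, 24.1, 44.2 and 29.1 CPM in the IgM-positive lines, 27.0 and 39.7 CPM in the IgM-negative lines, and 34.0 and 45.3 CPM in the tumours, which lay within the range of the lines. P190CreERLSLErg had 149 CPM and P190RagCreErg 1083 CPM of Pim1, both above all lines. MEFs had 9.02 to 35.1 CPM except for WT MEF 2 with 161 CPM, above P190CreERLSLErg. The part of the other cell types marked in WT MEF 2 in its Il7r and Pim1 levels was not tested.

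The lymphoma lines were compared with preB-ALL, a B cell tumour of an earlier stage that the study used as a contrast. BCR-ABL1, IL7 in the medium and batch differ along with tumour type here, and the part of each was not tested. Cish, Socs2, Pim1, Jak1 and Jak3 were lower in the lines, and Stat5b was higher. Il7r itself differed by less than the spread between libraries. The test was limma on log2(CPM + 0.1) after TMM scaling, which evens out differences in library composition, with p-values adjusted over all 13961 genes tested and a threshold of 0.05. Of the 10 members 6 passed, 1 higher and 5 lower, against 43.4% of all genes in either direction, 20.9% higher and 22.5% lower. The groups did not overlap for 6 of 10 members, against 53.4% of all genes tested. The median log2 fold change was -0.86 over the 10 members and -0.07 over all genes tested.

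Cish had the smallest adjusted p of the members (3.09e-06, limma). Its fitted log2 fold change of -8.92 (SE 0.46) depends on the added 0.1 CPM, since the lines had at most 2 reads. Pim1 was lower in 6 of 6 lines, by -3.10 on the log2 scale (SE 0.67, adjusted p = 0.00655, limma). Without P190RagCreErg the difference was -1.77 (limma, adjusted p = 0.0741), so the size rested on that library, and the call was also lost with the IgM-negative lines alone (-3.24, adjusted p = 0.055). Socs2 had a log2 fold change of -2.69 (SE 0.87, adjusted p = 0.0353, limma), with 6 of 6 lines below both preB-ALL libraries. Without P190CreERLSLErg or P190RagCreErg its adjusted p was 0.0804 or 0.287, and it also lost the call without line 15_180_IgMp or 16_202_IgMp, with the IgM-negative lines alone (-1.34, adjusted p = 0.103) and with the tumours in place of the lines of the same mice (-4.02, adjusted p = 0.0947).

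Jak3 was 2.21-fold lower in the lines on the fitted scale (log2 fold change -1.14, SE 0.27, adjusted p = 0.00929, limma). Jak1 was 1.94-fold lower (log2 fold change -0.95, SE 0.30, adjusted p = 0.0311, limma). Jak3 lost the call without P190RagCreErg (adjusted p = 0.0786), and Jak1 lost it without P190CreERLSLErg (adjusted p = 0.247), 18_214_IgMn or 19_216_IgMn and with the IgM-positive lines alone (-0.82, adjusted p = 0.0889, limma). With the tumours in place of the lines of the same mice, both lost it (Jak3 -0.69, adjusted p = 0.299, and Jak1 -0.83, adjusted p = 0.0682, limma). The sum of the fibroblast markers was high in the preB-ALL libraries too, although Dcn, Lum, Thy1 and Postn were low there. The MEFs had Jak1 at levels that span those of preB-ALL. Jak3, Cish and Socs2 were lower in every MEF than in either preB-ALL library, and so was Pim1 except in WT MEF 2. The part of fibroblast RNA in these differences was not tested. Stat5b was higher in the lines (log2 fold change 0.80, SE 0.24, adjusted p = 0.026, limma), and without a scaling factor, which shifts the median of all genes by -0.35, it kept its direction at 0.44 with an adjusted p of 0.126. Over all alternatives the adjusted p of Stat5b lay between 0.00332 and 0.252, and it lost the call without either preB-ALL library, with the IgM-positive lines alone (adjusted p = 0.0827) and when the tumours replaced the lines of the same mice (adjusted p = 0.191, limma).

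Il2rg missed the threshold (log2 fold change -0.76, SE 0.32, adjusted p = 0.0844, limma) although 6 of 6 lines were lower, and it passed by DESeq2 and without a scaling factor (-1.13, adjusted p = 0.0211). For Il7r the log2 fold change of 1.03 had a 95% interval from -3.73 to 5.79 (adjusted p = 0.714, limma). Its sign turned to -0.94 without P190CreERLSLErg. Stat5a had 0.37 with an interval from -0.11 to 0.85 (adjusted p = 0.183, limma). Stat6 had 0.18 with an interval from -0.25 to 0.61 (adjusted p = 0.456, limma), and its sign turned to -0.18 without a scaling factor. With only 1 preB-ALL library in the fit, 3 members passed without P190CreERLSLErg (Cish, Pim1 and Jak3), against 35.3% of all genes, and 2 without P190RagCreErg (Cish and Jak1), against 22.2%. The lone library was then assumed to vary like the lines.

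**Figure D2:**
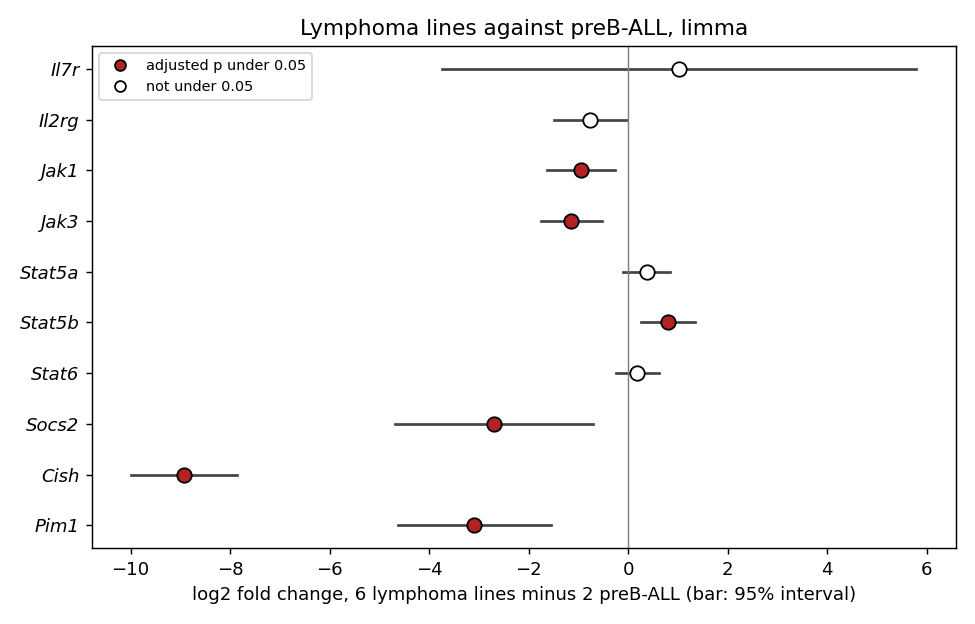
Log2 fold change of each gene in 6 lymphoma lines minus 2 preB-ALL libraries on the log2(TMM-scaled CPM + 0.1) scale, with 95% intervals from limma and filled points for an adjusted p under 0.05. Il7r has the widest interval, from -3.73 to 5.79, and Cish lies lowest at -8.92, a value set in part by the added 0.1 CPM.

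The IgM-negative and IgM-positive lines were compared, surface IgM being a mark that B cells acquire as they mature. Socs2 was the member whose groups lay furthest apart. The IgM-negative lines had 137 and 228 CPM and the IgM-positive lines 21.6 to 101 CPM, with no overlap. It was the 1 member of 9 tested without overlap, against 22.6% of all genes tested. The log2 fold change of Socs2 was 2.07 (SE 0.58), but with 2 lines against 4 the adjusted p was 0.285 (limma), ranging from 0.0223 to 0.651 across the alternatives. It passed by DESeq2 (adjusted p = 0.0275) and in 1 limma fit over all 20 libraries (adjusted p = 0.0223). None of the 9 members tested passed in the limma test (0 of 9, against 0.597% of 12386 genes), and edgeR called 0 (against 0.194%) and DESeq2 1 (against 6.05%). At an unadjusted p under 0.05 there was 1 member, Socs2, against 11.3% of all genes tested. Cish had too few reads to be tested. The 95% intervals of the log2 fold change were -1.05 to 0.25 for Jak1, -1.03 to 0.42 for Jak3, -0.82 to 0.26 for Stat5a, -0.38 to 0.86 for Stat5b, -0.36 to 0.61 for Stat6 and -4.34 to 6.71 for Il7r. Differences within these bounds are compatible with the values of these lines.

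The primary tumours were compared with the cultured lines of the same mice. Il7r and Socs2 were lower in both tumours than in either line, and Il2rg, Jak3 and Jak1 were higher in both. Il7r was at 142 CPM in line 14_179_IgMp and 2.99 CPM in library 21, which carries its mouse number in the title, and at 132 CPM in line 15_180_IgMp and 1.14 CPM in library 20 (log2 fold change -6.18, SE 0.52, adjusted p = 0.0498, limma). It was the only member that passed, 1 of 9 tested, against 0.33% of 12719 genes in either direction and 0.0629% lower. Its call was at the edge of the threshold and was lost in 11 of 17 alternatives, among them edgeR (adjusted p = 0.0771), RLE scaling and the omission of any 1 of the 4 libraries, while the adjusted p over all alternatives lay between 1.00e-31 and 0.441. Its levels in the tumours were like those of lines 16_202_IgMp and 17_213_IgMp (0.986 and 1.69 CPM), and against all 6 lines its log2 fold change was -3.28 (adjusted p = 0.273, limma).

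Socs2 had 101 CPM in line 14_179_IgMp and 5.78 CPM in library 21, and 46.3 CPM in line 15_180_IgMp and 3.64 CPM in library 20 (log2 fold change -3.91, SE 0.52, adjusted p = 0.0659, limma). Against all 6 lines it passed, at -3.98 (limma, adjusted p = 0.016). Il2rg had log2 fold changes of 1.47 (SE 0.30, adjusted p = 0.0868, limma) and 1.03 against all 6 lines (adjusted p = 0.0435). Jak3 had 1.44 (SE 0.29, adjusted p = 0.0838, limma) and 1.20 against all 6 lines (adjusted p = 0.0236). Against all 4 IgM-positive lines, Socs2 passed and Il2rg and Jak3 did not (limma). Groups did not overlap for 5 of the 9 members tested, against 57.1% of all genes tested. The 8 T cell markers summed to 164 to 186 CPM in the tumours and 15.7 to 85.1 CPM in all lines, most of it from Zap70 and Lck, whereas Cd3e was at most 0.61 CPM in both tumours. Myeloid markers summed to 30.6 to 41.5 CPM in the tumours and 2.07 to 13.2 CPM in the lines. The part of such cells in the higher Il2rg and Jak3 levels was not tested.

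The labels of the tumours contradict each other. The title of library 20 names the mouse of line 15_180_IgMp and its description the mouse of line 14_179_IgMp, and the reverse holds for library 21. The immunoglobulin heavy chain V gene with the most reads was Ighv1-47 in line 15_180_IgMp (94.9% of V reads) and in library 20 (90.2%), and Ighv1-77 in line 14_179_IgMp (98.4%) and in library 21 (83.8%). With the mouse as a replicate block by title, 5 of 9 members passed, against 28.3% of all genes tested in that fit: Il7r (adjusted p = 0.00421), Socs2 (0.00421), Il2rg (0.0085), Jak3 (0.0116) and Stat5b (0.0404), by limma. With the block by description 0 passed, against 0 of 12719 genes, and Il7r had an adjusted p of 0.262 (limma). By these V genes the lines and tumours pair as in the titles, and the block by description joins libraries with different top V genes. Both blocked fits leave little replication to estimate the spread. The fold changes are the same in either pairing.

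**Figure D3:**
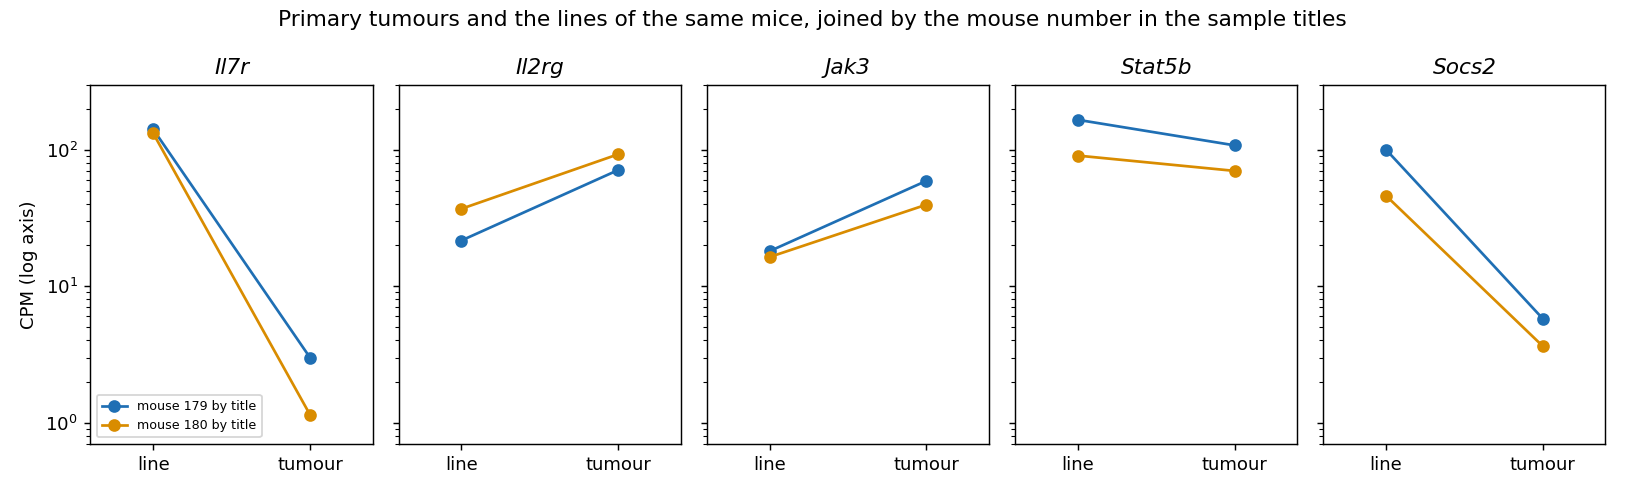
CPM on a log axis in each line and the primary tumour that carries its mouse number in the sample title, 1 line per mouse, for the 5 genes that passed in the fit blocked by title. Il7r and Socs2 are lower in both tumours, Il2rg and Jak3 are higher in both, and Stat5b differs least, from 166 to 108 CPM and from 90.9 to 70.2 CPM.

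Against the MEF baseline most members were higher in B-lineage libraries. In the lymphoma lines 9 of 10 passed, 7 higher and 2 lower (Jak1 and Cish), against 84.6% of 14714 genes in either direction, 36.5% higher and 48.2% lower. Il2rg was 52.1-fold higher by the ratio of mean CPM (log2 fold change 5.58, SE 0.33, adjusted p = 4.0e-11, limma), and Socs2 9.90-fold higher (2.76, SE 0.38, adjusted p = 3.25e-06). Jak1 was lower in 6 of 6 lines than in every MEF (log2 fold change -1.49, SE 0.19, adjusted p = 1.25e-06, limma). Stat6 passed narrowly (0.19, adjusted p = 0.0408, limma) and lost the call in 18 of 28 alternatives. Pim1 did not pass with WT MEF 2 in the fit (0.72, adjusted p = 0.159, limma) and passed without it (1.03, adjusted p = 0.00372, limma), and it passed by DESeq2 with that library included (0.80, adjusted p = 0.0104). Il7r passed with WT MEF 2 (6.53, adjusted p = 7.72e-05) and without it (7.19, adjusted p = 2.09e-06, limma). The size of this fitted fold depends on the added 0.1 CPM, since 9 of 10 MEF libraries had at most 2 reads, and it lay between 3.97 and 8.15 over the alternatives. Without that library 10 of 10 members passed, against 86.2% of all genes tested, with log2 fold changes of 5.71 for Il2rg, 2.75 for Socs2, -1.57 for Jak1 and 0.19 for Stat6. With the MEF libraries averaged per line, 8 passed, against 76.1% of all genes, and Stat6 lost the call (adjusted p = 0.242, limma).

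In preB-ALL 8 of 10 members passed against MEFs, all higher, against 73.3% of 15902 genes in either direction and 33.8% higher. Both comparisons share the MEF libraries. Socs2 was 67.4-fold higher by mean CPM (log2 fold change 5.66, SE 0.27, adjusted p = 1.07e-09, limma) and Cish 9.25-fold (2.84, SE 0.31, adjusted p = 2.88e-06). Pim1 had a log2 fold change of 4.02 (SE 0.85, adjusted p = 0.00088). Cish was thus above the MEFs in preB-ALL and below them in the lines. Jak1 (-0.33, adjusted p = 0.333, limma) and Stat6 (0.21, adjusted p = 0.112) did not pass. Jak1 passed against the sgBcl-2 MEFs only (-0.73, adjusted p = 0.014, limma), and Stat6 passed without a scaling factor (0.47, adjusted p = 0.00318) and without P190CreERLSLErg (0.38, adjusted p = 0.0157, limma). Without P190RagCreErg the adjusted p of Il7r was 0.137 and that of Pim1 0.0542 (limma), so the call of Pim1 rested on that library. Il7r also lost its call by edgeR (3.93, adjusted p = 0.0698), against WT and no-sgRNA MEFs only (4.91, adjusted p = 0.094, limma) and with the MEF libraries averaged per line (4.73, adjusted p = 0.102, limma), where 7 members passed, against 59.5% of all genes. With WT MEF 2 left out 8 members passed, against 79.3% of all genes, with log2 fold changes of 5.65 for Socs2, 4.34 for Pim1, 2.75 for Cish and 6.38 for Il7r.

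Another 45 genes of the pathway were listed as ligands, other receptor chains, other JAKs and STATs, brakes and STAT5 outputs, and 37 could be tested between the lines and preB-ALL. Of these 15 passed, 5 higher and 10 lower in the lines, which is 40.5% and close to the 43.4% of all genes. The median log2 fold change was -0.44 over the 37 genes. Without P190RagCreErg 8 of the 15 lost the call (Socs3, Sh2b3, Pias1, Pias3, Bcl2l1, Ccnd2, Ccnd3 and Gfi1), and without P190CreERLSLErg 2 did (Ccnd2 and Gfi1). No gene of these lists passed between IgM-negative and IgM-positive lines (0 of 34) or between tumours and lines (0 of 37) by limma, where 0.597% and 0.33% of all genes passed, so a count of 0 is near that background.

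Of the 7 ligands only Il7 and Il15 had enough reads, and both passed (adjusted p = 0.00033 and 3.6e-05, limma). Il7 was at 2.20 and 1.52 CPM in preB-ALL and at most 0.16 CPM in the lines. Il15, which signals through the same γ chain, was at 1.07 and 2.24 CPM in preB-ALL and at most 0.0375 CPM in the lines. MEFs had 1.75 to 5.46 CPM of Il7 and 1.29 to 4.26 CPM of Il15. The fibroblast markers summed to 5796 CPM in P190CreERLSLErg and 2448 CPM in P190RagCreErg, so the sum was lower where Il7 was lower and Il15 higher. The part of fibroblast RNA in these ligand levels was not tested. Of the 8 other receptor chains 5 were tested and 0 passed.

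Among the other JAKs and STATs, 2 of 6 passed and both were lower in the lines. Stat4, which acts below the IL-12 receptor, was at 51.8 and 73.9 CPM in preB-ALL, against no more than 0.149 CPM in any line, and the tumours had 3.72 and 3.29 CPM (adjusted p = 3.35e-06, limma). Stat2, which acts in the interferon response, was at 44.2 and 147 CPM in preB-ALL and at 18.5 to 26.3 CPM in the lines (log2 fold change -1.55, SE 0.37, adjusted p = 0.00979, limma). Without P190RagCreErg the difference was -0.77 (adjusted p = 0.0396, limma), and the call was lost with the IgM-negative lines alone or when the tumours replaced the lines of the same mice.

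Of the 15 brakes, 3 passed higher, 3 lower and 9 did not pass. Higher in 6 of 6 lines were Cbl, a ubiquitin ligase that removes receptors (log2 fold change 2.20, SE 0.31, adjusted p = 0.000772, limma), and Socs7 (1.47, SE 0.23, adjusted p = 0.00131). Pias1, an inhibitor of STAT proteins, was also higher (0.67, SE 0.14, adjusted p = 0.00604). The tumours had 22.5 and 36.7 CPM of Cbl, against 31.8 and 13.4 CPM in preB-ALL, and 28.9 and 31.8 CPM of Socs7, against 38.0 and 26.1 CPM. When the tumours replaced the lines of the same mice, Cbl (adjusted p = 0.0624), Socs7 (0.133) and Pias1 (0.126) lost the call (limma). Without P190RagCreErg the difference of Cbl was 1.48 (adjusted p = 0.0034, limma), and without a scaling factor Pias1 lost its call. Lower in 6 of 6 lines were Socs3, another cytokine-induced inhibitor (-3.68, SE 0.81, adjusted p = 0.00695), Pias3, an inhibitor of STAT3 (-1.74, SE 0.38, adjusted p = 0.00633), and Sh2b3, the adaptor LNK that restrains JAK2 (-1.34, SE 0.32, adjusted p = 0.01). MEFs had 3.39 to 18.9 CPM of Socs3, against 11.2 and 32.8 CPM in preB-ALL, and 33.9 to 47.2 CPM of Pias3, against 27.8 and 39.4 CPM. For Sh2b3 they had 34.5 to 39.6 CPM, below both preB-ALL libraries (87.9 and 161 CPM). The part of fibroblast RNA in the differences of Socs3 and Pias3 was not tested. Socs3 and Sh2b3 lost the call when the tumours replaced the lines of the same mice (adjusted p = 0.118 and 0.109, limma).

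Of the 9 STAT5 outputs, 2 passed higher, 3 lower and 4 did not pass. Bcl2l1, which encodes the survival protein BCL-XL, was at 82.5 and 177 CPM in preB-ALL and at 1.97 to 19.7 CPM in the lines (log2 fold change -3.70, SE 0.78, adjusted p = 0.00582, limma). The D cyclin gene Ccnd3 was at 880 and 1184 CPM in preB-ALL and at 63.6 to 342 CPM in the lines (-2.80, SE 0.57, adjusted p = 0.00465). Ccnd2 was at 410 and 319 CPM in preB-ALL and at 0.43 to 102 CPM in the lines (-5.44, SE 1.84, adjusted p = 0.042). This call near the threshold was also lost by edgeR (-3.52, adjusted p = 0.0917), with the IgM-positive lines alone, without line 15_180_IgMp or 19_216_IgMn, and when the tumours replaced the lines of the same mice. MEFs had 92.1 to 160 CPM of Bcl2l1 and 351 to 1478 CPM of Ccnd2, close to or above the preB-ALL levels, and the part of fibroblast RNA in these differences was not tested. Ccnd3 was at 131 to 274 CPM in MEFs, below both preB-ALL libraries. Pim3, a kinase related to PIM1, was higher in 6 of 6 lines (1.58, SE 0.26, adjusted p = 0.00159, limma), opposite to Pim1. Gfi1, a transcriptional repressor, was higher as well (0.91, SE 0.23, adjusted p = 0.0122), and it also lost the call without a scaling factor, with all 20 libraries in 1 fit, with the IgM-negative lines alone and when the tumours replaced the lines of the same mice (adjusted p from 0.0633 to 0.107).

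**Figure D4:**
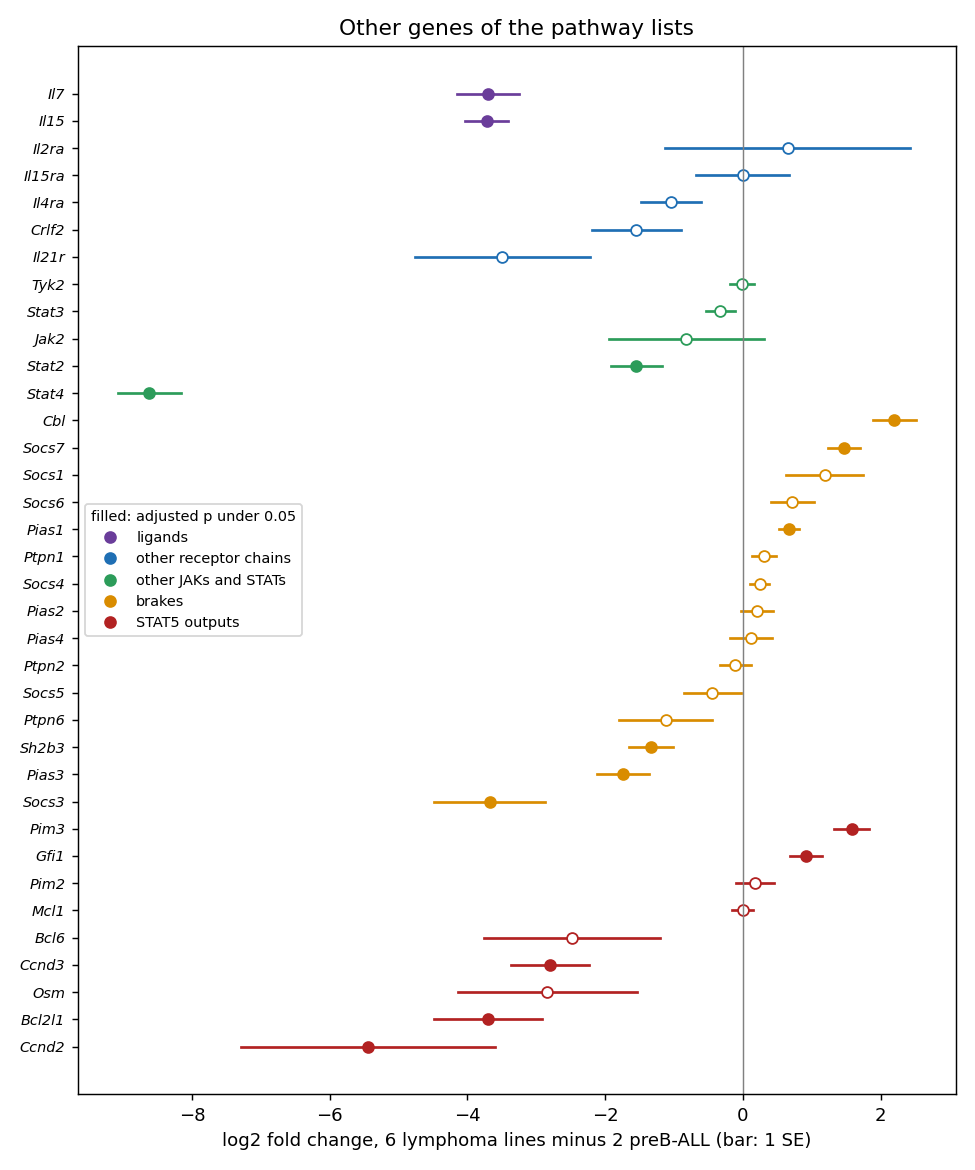
Log2 fold change of tested genes of the pathway lists in 6 lymphoma lines minus 2 preB-ALL libraries, with bars of 1 SE, colours for the lists and filled points for an adjusted p under 0.05 (limma). Stat4 lies lowest at -8.62, a value set in part by the added 0.1 CPM since the lines had at most 3 reads, and Cbl highest at 2.20, and the brakes lie on both sides of 0.

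Across the 10 B-lineage libraries (6 lines, 2 tumours and 2 preB-ALL), Pearson correlations of log2 levels between members were highest for Cish and Pim1 (r = 0.89), Il2rg and Jak3 (0.78) and Jak1 and Jak3 (0.76), and lowest for Il2rg and Stat5b (-0.72). Il7r and Socs2 had r = 0.51 and Il7r and Cish 0.038. Of 14378 genes, those most like Il7r were Foxq1 (0.92), Nktr (0.90), Msi2 (0.90), Crebbp (0.88) and Flicr (0.87). Those most like Socs2 were Acsl1 (0.96), Gmfb (0.94), Ghitm (0.94), Insr (0.94) and Ppp2r2a (0.93). For Cish, which had 0 to 4 reads in 8 of the 10 libraries, so that r reflects only which genes are high in the 2 preB-ALL libraries, they were 4930431P03Rik, Lrrc17, Gramd2, Bche and Plin4, with r from 0.992 to 0.995. The libraries are not independent, since 2 tumours and 2 lines come from the same mice and the preB-ALL pair shares its batch, so these values describe the 10 libraries only.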

How the data were processed

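The authors aligned the RNA-seq reads with Rsubread to GRCm38 (mm10), counted them per Entrez gene and deposited CPM values, reads per 1000000 counted on genes, without a log or scaling factor. Whether counting used the strand is not given in the sources used here, so overlapping genes are uncertain. In all libraries 100% of the values were whole multiples of 1 read (tolerance 0.001), so reads were recovered. Symbols and coordinates were matched by Entrez identifier in NCBI's table (GRCm38.p6) for 25242 of 25869 rows. Exon lengths were the union of exons in the GENCODE annotation of GRCm38, matched by symbol for the listed genes.

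For each comparison only its libraries were used. Genes were kept by filterByExpr, CPM was scaled by TMM, and limma 3.58.1 was applied with trend to log2(CPM + 0.1) in R 4.3.3, with Benjamini-Hochberg adjustment over all tested genes and a threshold of 0.05. Fold changes on this scale understate changes of low genes. Printed levels and overlaps between groups use CPM without a scaling factor. Alternatives were edgeR 4.0.16 (quasi-likelihood) and DESeq2 1.42.0 on the recovered reads, limma-voom, RLE or no scaling, pseudocounts of 0.5 and 1, no low-count filter, other sample sets, a replicate block and each library left out. The code was tested on simulated data. No pair of libraries of a group agreed within sampling noise, the smallest chi-square per degree of freedom being 7.32.

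The labels state separate mice for the lines but not for the preB-ALL libraries, and the 10 MEF libraries come from 4 lines by their titles, so p-values there may measure technical spread. Averaging the MEF libraries per line before limma was an alternative chosen after seeing the data. The block by title is taken as the pairing by mouse, as the sample titles and the top heavy chain V genes give it, and the descriptions contradict it. All 10 members are named. Of the pathway lists, named genes are up to 3 called genes with the smallest adjusted p per list and direction between lines and preB-ALL, and for Il7r, Cish and Socs2 the 5 most correlated genes. An item of the pathway lists that enters the counts is not reported here by itself. Members, lists, tests and alternatives were chosen with earlier results of these data known.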

Additional observations from a re-analysis of the deposited data

Results flagged for a closer look

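Among 40 sets of 4 to 10 libraries tested for a library far from the rest (each member in the IgM-positive lines, all lines, the sgBcl-2 MEFs and all MEFs), 2 stood out by Dixon's criterion, which marks about 1 in 20 sets by chance. Both were WT MEF 2 among the 10 MEF libraries. Il7r was at 13.6 CPM there and at 0 to 0.0864 CPM in the other 9, and Pim1 was at 161 CPM against 9.02 to 35.1 CPM in the other 9. Myeloid markers summed to 221 CPM in that library and to 8.47 to 14.1 CPM in the other 9, and their part in both levels was not tested.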

How the results depend on the processing

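Of 1018 refitted log2 fold changes of members, 923 kept their direction and side of the threshold, 54 lost a call, 23 gained one and 18 changed sign, and of 118 refitted counts 98 stayed within 1.5 times. Between lines and preB-ALL, 6 members passed (43.4% of all genes did), but 2 did where the tumours replaced their lines (25.9%) and 2 to 6 when a library was left out (22.2% to 43.9%). The pathway genes went from 15 to 7 with the tumours in place (25.9%) and to 25 with all 20 libraries in 1 fit (49.1%). The log2 fold change of Il7r turned to -1.06 with the tumours in place and lay between -0.94 (without P190CreERLSLErg) and 2.91 when a library was left out. That of Stat6 turned to -0.18 without a scaling factor and lay between -0.012 (without P190CreERLSLErg) and 0.29 when a library was left out.

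Between IgM-negative and IgM-positive lines 0 members passed (0.597% of all genes did), and 1 did by DESeq2 (6.05%) and 1 with all 20 libraries (3.58%). Il7r turned to -0.92 by edgeR and -0.91 by DESeq2, and with a line left out it lay between -0.029 (without 16_202_IgMp) and 2.31. Pim1 then lay between -0.42 and 0.126 (without 14_179_IgMp), and at 0.085 without 18_214_IgMn. For the tumours, 1 member passed (0.33% of all genes), against 4 by DESeq2 (16.5%) and with all 20 libraries (15.1%) and 3 against all 6 lines (19.7%). By edgeR, limma-voom, RLE scaling, without a low-count filter and when any of the 4 libraries was left out, 0 members and 0% of all genes passed. With the replicate block 5 passed by the titles (28.3%) and 0 by the descriptions (0%). Pim1 turned to 0.011 against all 4 IgM-positive lines and 0.022 against all 6. With 1 of the 4 libraries left out, Pim1 lay between -0.95 and 0.692 (0.139 without library 20), Stat6 between -0.33 and 0.101 (0.0982 without 14_179_IgMp) and Stat5a between -0.33 (without 15_180_IgMp) and 0.40 (-0.13 without library 21). Jak1 in preB-ALL against MEFs lay between -0.69 and 0.022 (without P190RagCreErg) when a library was left out, and at -0.73 against the sgBcl-2 MEFs only. The causes were not tested. Counts against MEFs were 8 to 10 for the lines (67.2% to 86.2% of all genes) and 6 to 9 for preB-ALL (57.1% to 79.3%).

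Il7r in 9 of 10 MEF libraries and Cish in all lymphoma libraries had at most 4 reads, so differences among these were not detectable. Each comparison with preB-ALL or tumours rests on 2 libraries.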
